A study of Mus musculus with 10 samples.

Results

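The experiment described here set Bmi1 knockout cultures against wild type cultures when both had been given sonic hedgehog (Shh), and it takes up 4 of the 10 arrays of the series. The 4 arrays were chosen by their labelled genotype and treatment: wild type with Shh (n = 2, arrays 7 and 9) and Bmi1 knockout with Shh (n = 2, arrays 8 and 10). The other 6 arrays came from untreated cultures of wild type mice (arrays 1, 3 and 5) and knockout mice (arrays 2, 4 and 6), and they served to estimate the spread and to give the genotype difference without Shh. Each array held RNA from 1 primary culture of cerebellar granule cell precursors, the dividing neuronal progenitors of the outer layer of the young cerebellum. The pups were aged 5 to 7 days by the sample labels and 7 days by the series text. Each culture lasted 24 hours, with 10% fetal calf serum and 20 mM KCl in the medium, and the treated ones received Shh for 24 hours at a dose labelled as 3 mg/ml, which is repeated as labelled. The knockout is constitutive (Bmi-1-/-), so every cell of the animal and every cell type in the culture carried it. The submitters call the cultures biological replicates, but the number of pups behind each is not given. The p-values below therefore measure the spread between these arrays. A label of untreated wild type array 3 mentions Shh with a condition attached, but its title and characteristics name no treatment, and the untreated group includes it.

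Shh, secreted in the cerebellum by Purkinje cells, binds Ptch1 on granule cell precursors, releases Smo, and through the Gli transcription factors drives genes of division such as Mycn and the D-type cyclins. Bmi1 is a subunit of Polycomb repressive complex PRC1, which together with PRC2 keeps developmental genes and the Cdkn2a locus silent. Cdkn2a encodes an inhibitor of the kinases Cdk4 and Cdk6 and, in another reading frame, Arf, which protects p53 from Mdm2. Among the genes that p53 turns on are Cdkn1a, an inhibitor of cyclin-dependent kinases also called p21, and several genes of cell death. The question put by the comparison is what the loss of Bmi1 changes in precursors that are being driven by Shh.

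The arrays were Affymetrix Mouse Genome 430 2.0, read as MAS5 signal on a linear scale, with each array scaled to a trimmed mean of 500. All values below are such signals, or log2 differences between group means of them, knockout minus wild type, with the standard error of the model (SE). Signals under 20.9 were raised to that floor before log2 was taken. The fold of a gene with an array at the floor is thus a lower bound, written "at least". Values raised to the floor are equal, so they add no spread, and the SE and p of such a gene can be too small. A gene was called changed at an adjusted p under 0.05, by limma with Benjamini-Hochberg adjustment over all 11397 genes tested. Median signals of the 4 Shh arrays ran from 66.9 to 72.3, and the rank correlation between them lay between 0.926 and 0.942. Wild type array 9 gave the lowest correlation with each of the other 3. The first principal component, with 70.1% of the variance, separated treated from untreated arrays, and on the second, with 7.79%, the wild type Shh arrays (9.41 and 15.4) lay apart from the knockout Shh arrays (-19.1 and -9.52).

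The labels were checked on genes of known pattern. Bmi1 itself gave signals of 4515 and 4165 in wild type and 3432 and 3416 in the knockout, a difference of -0.34 (SE 0.11, adjusted p = 0.301). A lower signal was seen on both knockout arrays, but the RNA of the locus was not missing. No label states what was deleted from the gene, so these probes do not check the genotype. Of 22 tested granule lineage markers 0 were called by limma, 8 lay above 0 and 14 below, and the median difference was -0.07. Differences ran from -0.58 to 0.46. The lowest was that of Barhl2, at 325 and 421 against 237 and 259 (adjusted p = 0.238 by limma). Summed signals of the list were 103533 and 99833 in wild type and 101433 and 102571 in the knockout. Of other transcription factors of the lineage, Zic1 (0.03), Barhl1 (-0.03) and Neurod1 (-0.09) differed by less than their SE. Atoh1, which marks dividing precursors, differed by -0.14 (SE 0.16). The 4 arrays were not alike in sex chromosome genes. Xist, the RNA of the inactive X chromosome, read 4100 on knockout array 8 and 24.1 to 66.5 on the other 3. The Y-linked gene Eif2s3y read 20.5 on array 8 and 793 to 980 on the others. On the untreated arrays Eif2s3y read 1.1, 14.5 and 1222 in wild type (arrays 1, 3 and 5) and 0.705, 1499 and 6.18 in the knockout (arrays 2, 4 and 6). Calls that the fit without array 8 ended are named in the paragraphs that give them.

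Of the 11397 genes tested, 83 passed the threshold (0.728%), 70 of them higher in the knockout (0.614%) and 13 lower (0.114%). The rises were larger as well as more numerous. The 9 genes Cdkn2a, Igf2bp1, Robo3, Actc1, Adcy8, Zdbf2, Pmaip1, Phlda3 and Resp18 rose by 4-fold or more, another 41 rose by 2-fold to 4-fold and 20 by less than 2-fold, with genes under the floor counted at their lower bound. The median rise was 2.4-fold, with a range of 1.53 to 14.1-fold. Falls ran from 1.53 to 2.7-fold with a median of 1.95-fold, and 6 of the 13 reached 2-fold. In all 83 genes the 2 wild type and the 2 knockout values did not overlap, which was also true of 22.3% of all tested genes in the upward direction and of 16.8% in the downward direction. At an unadjusted p under 0.05 there were 1112 genes (9.76%). The median difference over all tested genes was 0.01, and 53.5% of them lay above 0. The counts of each list below are to be read beside these shares, 0.614% called higher, 0.114% called lower and 53.5% above 0.

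**Figure D1:**
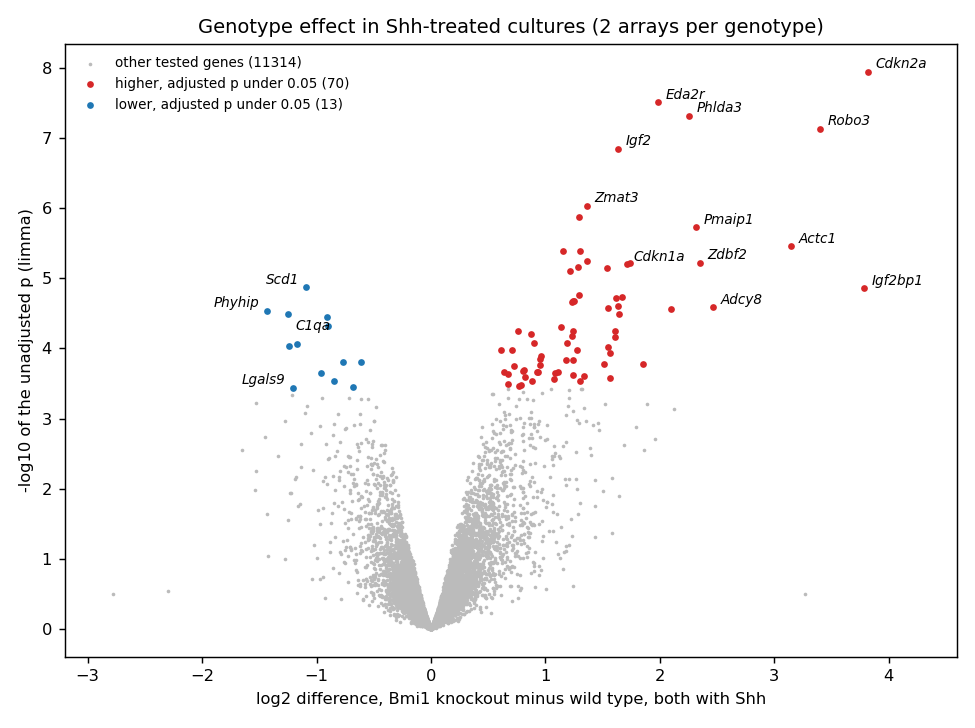
Each point is a tested gene, with the log2 difference between knockout and wild type in Shh-treated cultures on the x axis and the -log10 of limma's unadjusted p on the y axis. The 70 called rises (red) reach 3.82 on the log2 scale at Cdkn2a, whereas the 13 called falls (blue) reach -1.43 at Phyhip.

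How firmly a call stood depended on the other arrays. With 2 arrays in each group, leaving out 1 array leaves a lone sample that is assumed to vary like the other groups. In each of the 10 fits that left out 1 array, 18 of the 83 calls held, and all 18 were rises: Cdkn2a, Robo3, Actc1, Zdbf2, Pmaip1, Phlda3, Eda2r, Ddit4l, Cdkn1a, Igf2, Fndc1, Aen, Zmat3, Skap2, Mab21l2, Adcyap1, Zfhx4 and Cspg4. None of the 13 falls held in all 10. Calls described below as lost or kept without an array refer to these 10 fits. Without array 8 the count dropped to 29 and without array 9 to 32. Consecutive running numbers, 1 of each genotype, deviated together from their group means, and a fit with these pairs as a block (called blocked below) called 50 genes, 41 of which were among the 83. A fit of the 4 Shh arrays alone called 3 genes, Robo3, Pmaip1 and Phlda3.

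Cdkn2a, the classical target of Bmi1, rose. Its signal was 31.1 and 24 on the wild type arrays and 329 and 451 on the knockout arrays. Wild type lay close to the floor and the knockout about an order of magnitude above it, with no overlap. The difference was 3.82 (SE 0.20), or 14.1-fold (adjusted p = 0.00013). Cdkn2b, the neighbouring inhibitor of the same kinases, read 211 and 105 in wild type and 393 and 501 in the knockout. The groups did not overlap, but the difference of 1.58 had an SE of 0.67 and did not pass (adjusted p = 0.483). Cdkn1a stood at 2439 and 2870 against 8750 and 8551, a 3.27-fold rise (log2 1.71, SE 0.19, adjusted p = 0.00478), and its other probe set gave 1.65. The remaining CDK inhibitors gave -0.09 (Cdkn2c), -0.10 (Cdkn1b), -0.30 (Cdkn2d) and -0.51 (Cdkn1c), none of them called. So of the 7 genes of the family, 2 rose, and the median was -0.09, a sign that turned without array 7 or array 10 (at most 0.05).

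Hox genes, which give cells their position along the body axis and are the best-known targets of Polycomb repression, were mostly too dim to enter the fit described so far, because its filter took the mean over all 10 arrays. Of 33 on the array, 1 passed the filter. The planned fit with no filter on low genes tested 18193 genes and called 91 (0.5%), 65 higher (0.357%) and 26 lower (0.143%). It called 6 of the 33 Hox genes higher and 0 lower. Hoxa9 read 3.89 and 19.1 in wild type with Shh and 159 and 218 in the knockout, a difference of at least 8.88-fold (log2 3.15, SE 0.17, adjusted p = 0.00166). Hoxa3 read 2.56 and 4.23 against 174 and 181 (at least 8.46-fold, adjusted p = 0.0121). Hoxa2 read 5.26 and 13.8 against 175 and 141 (at least 7.52-fold, adjusted p = 0.00755). In these 3 genes both wild type arrays lay under the floor and both knockout arrays well above it. Hoxa7 (at least 5.48-fold, adjusted p = 0.0182), Hoxc9 (4.88-fold, adjusted p = 0.00695) and Hoxd8 (at least 3.06-fold, adjusted p = 0.00695) were the other 3. No call was made in the B cluster, and the median of the 33 was 0.10. A fold is given as at least so much where wild type lay under the floor, since it was then computed against the floor. Hoxa9, Hoxa3 and Hoxa7 lay under it on every wild type array of both conditions. Those arrays added no spread, so the SE and adjusted p by limma of these genes can be too small. Without Shh 7 of the 33 were called higher, and the difference was 3.48 for Hoxa9, 3.03 for Hoxa3, 3.24 for Hoxa2, 3.69 for Hoxa7, 2.52 for Hoxc9 and 2.52 for Hoxd8 on the log2 scale.

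Hoxa5, the Hox gene that passed the filter, has a pair of probe sets that disagreed. Its brighter probe set read 166 and 132 against 275 and 282 (0.91, SE 0.24, adjusted p = 0.175). The other read 23.9 and 6.2 in wild type and 477 and 817 in the knockout. Testing every probe set at or above the median on its own, an alternative chosen after the data were seen, called 77 of 20179 probe sets (0.382%). This Hoxa5 probe set was among them (log2 4.80, SE 0.28, adjusted p = 0.000213). Without Shh it read 4.25, 28.2 and 8.48 in wild type and 529, 563 and 775 in the knockout, a difference of 4.73 (adjusted p = 4.06e-05). With Shh 1 wild type array lay under the floor, where its value was set to the floor before the fit. The 77 probe sets stood for 70 genes, 56 of which were among the 83 called by gene.

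Foxa2, a factor of the floor plate and of endoderm that is on no list, was called below the filter too. It read 17 and 5.61 in wild type with Shh, under the floor on both arrays, and 233 and 222 in the knockout, at least 10.9-fold higher (log2 3.44, SE 0.06, adjusted p = 4.09e-06), and differed by 3.38 without Shh. Foxa2 lay under the floor on every wild type array of both conditions. These arrays added no spread, so the small SE and adjusted p by limma owe much to the floor. Further developmental factors called higher in the fit with no filter were Tbx15, at 4.13 and 12.8 against 95.2 and 68.2 (at least 3.85-fold, adjusted p = 0.0361), Hand2, at 4.39 and 3.65 against 60.7 and 77.2 (at least 3.27-fold, adjusted p = 0.044), and Foxc1, at 2.84 and 7.68 against 54.9 and 43.2 (at least 2.33-fold, adjusted p = 0.0418). The muscle factor Myf6 read 10.3 and 6.27 against 49.3 and 41.1 (at least 2.15-fold, adjusted p = 0.00442). Hand2 and Myf6 too lay under the floor on every wild type array of both conditions. Foxc1 was at 114 to 132 in untreated wild type and 113 to 148 in the untreated knockout. These genes were picked with their values known, and neither the block nor the fits with an array left out were run without the filter.

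Genes that p53 turns on held more of the called rises than any other of the 48 gene lists. Of 32 tested members of the list, 9 were called higher and 0 lower, 28 lay above 0, and the median was 0.48 against 0.01 for all genes. Among all tested genes 0.614% were called higher and 53.5% lay above 0. The summed signal of the list was 32922 and 32615 in wild type and 56521 and 53692 in the knockout.

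Among the death genes, Pmaip1, which encodes the BH3-only protein Noxa, read 144 and 133 against 654 and 722, a 4.98-fold rise (SE 0.22 on the log2 scale, adjusted p = 0.00266). Bbc3, which encodes the related protein Puma, read 450 and 428 against 801 and 837, a 1.87-fold rise (adjusted p = 0.022) that was lost without any 1 of the Shh arrays 7, 8, 9 or 10 (adjusted p up to 0.144). Eda2r, a death receptor of the tumour necrosis factor family, rose from 433 and 379 to 1690 and 1525, or 3.96-fold (adjusted p = 0.000175). Aen, a nuclease of dying cells, went from 905 and 1003 to 2731 and 2207 (2.58-fold, adjusted p = 0.00478), and its other 3 probe sets gave 1.32 to 1.42 on the log2 scale. Each of these 4 genes was higher on both knockout arrays than on either wild type array. Outside the list, the apoptosis machinery had 1 called member among 21 tested genes, with 10 above 0, 11 below 0 and a median of -0.00. That member, Hrk, another BH3-only gene, read 148 and 117 against 348 and 275 (2.36-fold, adjusted p = 0.0164, lost without array 8 or 9, up to 0.129).

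Among the signalling and growth genes of the list, Phlda3, a repressor of Akt, read 198 and 221 against 982 and 1021, a 4.78-fold rise (adjusted p = 0.000185). Zmat3, an RNA-binding zinc finger protein, stood at 1262 and 1249 against 3431 and 3047 (2.57-fold, adjusted p = 0.00176). Ccng1, cyclin G1, went from 2283 and 2102 to 5536 and 4795 (2.35-fold, adjusted p = 0.00946, lost without array 8 or 9, up to 0.0803), and its other 2 probe sets agreed at 1.29 and 1.34. Trp53inp1, a partner of p53, rose 1.75-fold, from 2859 and 2646 to 4924 and 4701 (adjusted p = 0.0371, lost without any 1 of arrays 3 to 10, up to 0.225), on 1 probe set, while the other gave 0.02. Members without a call included Sesn2, an inhibitor of the growth kinase complex mTORC1, at 1.16 (SE 0.28, adjusted p = 0.133), the DNA polymerase Polk at 0.97 (adjusted p = 0.0545) and the kinase Plk2 at 0.70 (adjusted p = 0.127). Mdm2, the ubiquitin ligase that closes the loop by degrading p53, differed by 0.39 (SE 0.13, adjusted p = 0.314) on its brightest probe set and by -0.01 and -0.03 on the other 2. Ddit4l, a stress-induced relative of the mTORC1 inhibitor Ddit4 that is not on the list, read 62 and 91.7 against 253 and 249, a 3.33-fold rise (adjusted p = 0.00478) that both other probe sets shared (1.81 and 1.01).

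**Figure D2:**
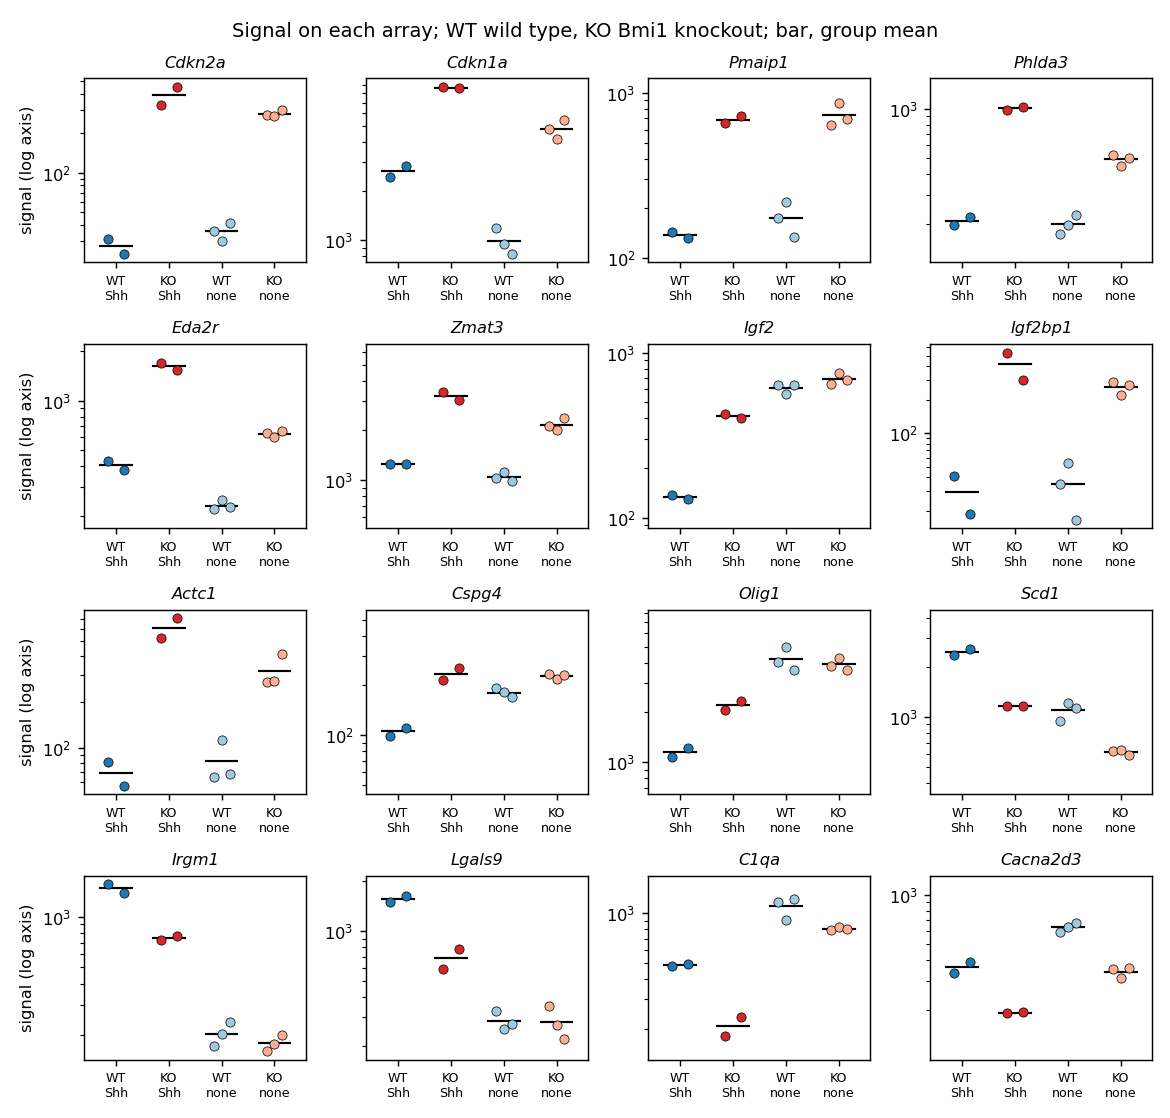
Signal on every array (log axis) for 16 genes in the 4 groups, with 1 point per array and a bar at the group mean; WT is wild type, KO is Bmi1 knockout and none means no Shh. Cdkn2a and the p53 targets are higher in the knockout in both conditions, Igf2 parts the genotypes with Shh, where it reads 138 and 130 against 426 and 404, and Irgm1 and Lgals9 are lower in the knockout with Shh.

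The promoters of 3 of the called p53 targets are shown because letters of the p53 site lie close to their start. RefSeq promoters (GRCm38.p6, the 250 bases before the start) were at hand for 9262 of the 11397 tested genes. The full p53 site was searched as 2 abutting half-sites of 20 bases in all. The outer C and G of each half-site core were fixed, and at most 1 mismatch was allowed at any other base. The half-site was searched as 10 matching bases, and both searches covered both strands. A full site was in 5 of the 9262 promoters (0.054%), and 2 of these 5 belonged to called p53 targets. A half-site was in 7.23% of all promoters, in 9 of the 53 called rises with a promoter (17%), in 9 of 25 p53 targets (36%) and in 3 of the 6 called ones. It was also in 4 of 16 promoters of the cholesterol list (25%), in 5 of 23 of the interferon list (21.7%) and in 1 of 9 of the called falls (11.1%). In the lines below capitals mark the full site in Cdkn1a (chr17:29090729-29090978, plus strand) and in Ccng1 (chr11:40755287-40755536, minus strand), and a half-site in Aen (chr7:78895808-78896057, plus strand). Each runs 5′ to 3′ toward the gene.
Cdkn1a: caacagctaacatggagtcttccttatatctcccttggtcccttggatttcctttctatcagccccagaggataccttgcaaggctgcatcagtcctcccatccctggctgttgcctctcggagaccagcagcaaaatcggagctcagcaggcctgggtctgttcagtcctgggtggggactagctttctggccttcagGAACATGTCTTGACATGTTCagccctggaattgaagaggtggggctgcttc
Ccng1: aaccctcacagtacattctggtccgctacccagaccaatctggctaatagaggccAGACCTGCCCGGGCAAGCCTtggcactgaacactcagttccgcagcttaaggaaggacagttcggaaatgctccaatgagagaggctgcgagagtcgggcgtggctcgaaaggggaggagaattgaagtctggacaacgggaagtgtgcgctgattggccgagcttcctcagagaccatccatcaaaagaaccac
Aen: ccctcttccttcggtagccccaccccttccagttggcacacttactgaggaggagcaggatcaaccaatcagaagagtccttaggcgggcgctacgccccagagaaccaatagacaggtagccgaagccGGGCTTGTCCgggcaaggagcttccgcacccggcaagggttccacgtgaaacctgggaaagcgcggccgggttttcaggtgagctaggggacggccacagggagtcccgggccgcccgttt
The site of Cdkn1a ends 32 bases before the start and that of Ccng1 ends 176 bases before it. In Ccng1 the mismatch is an inner base of the first core. These are matches of letters in a window, and a gene without one may hold its site elsewhere.

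Of 5 tested oncofetal RNA regulators, genes of RNA control in embryonic tissue, 1 rose and 0 fell, 3 lay above 0 and 2 below, and the median was 0.44 (-0.03 with the mean of all probe sets). The 1 called member, Igf2bp1, an RNA-binding protein that binds Igf2 messenger RNA, read 40.7 and 18.8 against 532 and 304. The lower wild type value was under the floor, and the difference of 3.78 (SE 0.45) was a rise of at least 13.8-fold (adjusted p = 0.00792), lost without array 8 or 9 (up to 0.0639). Its 4 probe sets gave 3.78, 3.63, 3.09 and, for the dimmest, 0.83. Its relative Igf2bp3 read 1003 and 990 against 1718 and 1364, with no overlap and no call (0.62, SE 0.15, adjusted p = 0.144). Igf2 itself, a growth factor, stood at 138 and 130 against 426 and 404, a 3.11-fold rise (log2 1.64, SE 0.11, adjusted p = 0.000323). A second Igf2 probe set was under the floor on all 4 arrays. Of the rest of the IGF axis, the binding protein gene Igfbp4 fell, from 664 and 588 to 342 and 391 (-0.77, adjusted p = 0.0314, blocked 0.113, lost without any 1 of arrays 4 to 10, up to 0.184), Igfbp2 differed by 0.67 (adjusted p = 0.157) and the receptor gene Igf1r by 0.38 (adjusted p = 0.314). The list of 12 tested genes had 1 member called in each direction and a median of 0.22, which was 0.35 without array 8 and 0.05 without array 10.

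Igf2 is also imprinted, that is, expressed from the copy of 1 parent. On the list of imprinted genes 3 of 30 tested members rose and 0 fell, and the median was 0.15 (0.26 without array 8). Zdbf2 read 164 and 233 against 937 and 1063, a 5.11-fold rise (adjusted p = 0.00478). Grb10, an adaptor that binds the insulin and IGF receptors, went from 465 and 407 to 1117 and 946 (2.36-fold, adjusted p = 0.0302, blocked 0.0777), a call kept only in the fits without array 3 or 5, and its other probe sets gave -0.49 and 0.63. Further imprinted RNAs lay higher on both knockout arrays without passing. Magel2 differed by 1.01 (adjusted p = 0.0957) and Meg3, a long noncoding RNA with 11 probe sets, by 0.88 (adjusted p = 0.0795). Cdkn1c, imprinted and a CDK inhibitor, went the other way at -0.51 (adjusted p = 0.342).

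Among transcription factors outside the Hox family that pattern other regions, 3 of the 21 on the list that passed the filter rose, with a median of 0.20 (0.08 without array 8). Lhx2, a factor of the forebrain and eye, read 149 and 169 against 437 and 506 (2.96-fold, adjusted p = 0.0413, blocked 0.08). Onecut2 went from 110 and 132 to 369 and 370 (3.07-fold, adjusted p = 0.00946), and its other probe sets gave 1.94 and 1.35. Nkx2-2, a factor of the ventral neural tube and of oligodendrocytes, read 220 and 245 against 483 and 625 (2.37-fold, adjusted p = 0.00946). Onecut2 lost its call without array 7 or 8 (up to 0.0686), Nkx2-2 without array 7 (0.0549) and Lhx2 in all but the fits without array 1 or 5 (up to 0.168). Dmrta2, a factor of the dorsal forebrain, just missed at 1.31 (SE 0.24, adjusted p = 0.0503). Outside the list, the zinc finger genes Zfhx4 (2.33-fold, adjusted p = 0.00501), Sall1 (2.37-fold, adjusted p = 0.0384, blocked 0.0691) and Zbtb16 (1.94-fold, adjusted p = 0.0328, blocked 0.116) rose, of which Zfhx4 held with every array left out in turn. Sall1 kept its call only in the fits without array 3 or 10 (otherwise up to 0.187) and Zbtb16 in those without array 1, 3 or 4 (otherwise up to 0.186). Subunits of the Polycomb complexes themselves showed 0 calls by limma in either direction among 28 tested genes, with a median of -0.02. At an unadjusted p under 0.05, 2 were lower and 0 higher, beside 3.27% and 6.48% of all tested genes.

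Of 36 tested genes of axon guidance 2 rose and 0 fell, 29 lay above 0 and the median was 0.20. Robo3, the Slit receptor family member that lets axons cross the midline, read 7.36 and 14.4 in wild type, under the floor on both arrays, and 220 and 222 in the knockout. The rise was at least 10.6-fold (log2 3.40, SE 0.22, adjusted p = 0.000211) on 1 probe set, while the other, dim on every array, gave -0.34. Dcc, the netrin receptor, went from 1819 and 1566 to 2923 and 2804 (1.70-fold, adjusted p = 0.0164, lost without array 8, 9 or 10, up to 0.129), and its other probe sets gave 0.59 and -0.71. Nrp1, a receptor of semaphorins, differed by 0.81 on its brightest probe set and by 0.64 to 0.74 on the other 3, with no call (adjusted p = 0.0957).

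Of 25 tested genes of cAMP signalling 1 rose and 0 fell, and the median was 0.18 (0.10 without array 10). The called member, Adcy8, a calcium-stimulated adenylyl cyclase, read 46.2 and 75.5 against 325 and 328 (5.53-fold, adjusted p = 0.0104), a call lost without array 7, 8 or 10 (up to 0.0725). Further genes of neuronal signalling were picked from the called genes and stand for no list. Adcyap1, the neuropeptide PACAP, rose 2.43-fold, from 80.7 and 67.9 to 163 and 199 (adjusted p = 0.00478, blocked 0.0523). Pnoc, the precursor of the peptide nociceptin, went from 532 and 711 to 1559 and 2377 (3.13-fold, adjusted p = 0.0111, lost without array 7, 0.0638). Slc6a5, the glycine transporter of glycinergic neurons, rose from 70.5 and 51.3 to 198 and 169 (3.04-fold, adjusted p = 0.0164, blocked 0.0691, lost without array 8, 9 or 10, up to 0.127). All 4 genes read higher on both knockout arrays. Receptor and channel genes Chrnb4 (at least 3.11-fold, adjusted p = 0.0104, lost without array 8 or 9, up to 0.0725), Grm5 (2.16-fold, adjusted p = 0.0371, blocked 0.0936, kept only in the fits without array 1 or 3) and Kcna2 (1.59-fold, adjusted p = 0.0469, blocked 0.125) also rose, and Kcna2 lost its call in every fit with an array left out. Cacna2d3, a calcium channel subunit, fell from 336 and 392 to 193 and 194 (-0.91, adjusted p = 0.0119, blocked 0.0523, lost without array 8, 9 or 10, up to 0.105).

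Markers of other neurons were set beside these. Of 14 tested markers of GABAergic and interneuron types, Slc6a5 was the 1 called rise and the median was 0.13 (0.08 without array 7). The neuropeptide Sst read 177 and 111 against 484 and 773 and differed by 2.12 (SE 0.43, adjusted p = 0.0736), whereas the peptide precursor Tac1 went the other way at -1.19 (adjusted p = 0.224). Their summed signal was 6647 and 6329 in wild type and 7338 and 7910 in the knockout. The part of such cells in the results on signalling genes was not tested. Markers of maturing neurons had 1 call, the fall of Cacna2d3, among 34 tested genes and a median of 0.12 (0.20 without array 8 and 0.02 without array 10).

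Actc1, the alpha actin of the heart, rose from 81.6 and 57.2 to 523 and 701 (8.86-fold, SE 0.32 on the log2 scale, adjusted p = 0.0043). It was the 1 called member among 14 tested contractile genes of muscle type. Tpm2, a muscle tropomyosin, differed by 1.26 on its brightest probe set (adjusted p = 0.147) and by -0.60 to 0.33 on the other 3. The list's median of 0.48 turned to -0.11 when genes under the 75th percentile were left out. Other large rises on no list were Resp18, an endocrine secretory protein (at least 4.27-fold, adjusted p = 0.0106, lost without array 7, 9 or 10, up to 0.0791), Aqp6, a member of the aquaporin family (3.61-fold, adjusted p = 0.0323, blocked 0.121, lost without any 1 of arrays 4 to 10), Lgi1, a secreted synaptic protein (3.18-fold, adjusted p = 0.00946, blocked 0.0523, lost without array 9), and Alk, a receptor tyrosine kinase (3.06-fold, adjusted p = 0.0184, lost without array 7, 8, 9 or 10, up to 0.0969). Fndc1, at least 2.91-fold higher, lay under the floor on both wild type arrays (8.41 and 8.82) and at 57.8 and 63.9 in the knockout. Sulf2, which removes sulfate groups from heparan sulfate outside the cell, rose 2.92-fold, and Hs3st4, which adds them, 2.45-fold. Sulf2 lost its call without array 7, 9 or 10 (adjusted p up to 0.15) and Hs3st4 without array 8 or 9 (up to 0.0747). Mab21l2 (2.45-fold, adjusted p = 0.00215) and Lrba (1.64-fold, adjusted p = 0.0238, blocked 0.0805, lost without array 5, 7, 8, 9 or 10) are neighbours on the chromosome and were the only adjacent pair among the called genes.

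Some genes of glia rose. The cultures are of neuronal precursors, and in such bulk RNA more cells of a type and more RNA per cell cannot be told apart. Of 17 tested oligodendrocyte lineage markers 4 rose and 0 fell, 15 lay above 0 and the median was 0.54. Their summed signal was 18908 and 18004 in wild type and 21709 and 27176 in the knockout. Sox10, the lineage's transcription factor, read 209 and 177 against 374 and 581 (2.42-fold, adjusted p = 0.0238, blocked 0.0879, lost without array 4, 7, 9 or 10), and its other probe sets gave 1.79 and -0.01. Cspg4, the NG2 proteoglycan of oligodendrocyte precursors and of pericytes, went from 99.2 and 111 to 216 and 253 (2.22-fold, adjusted p = 0.0043). It was the 1 rise of this list that held with every array left out in turn. Olig1 stood at 1078 and 1224 against 2075 and 2339 (1.92-fold, adjusted p = 0.0371, kept only in the fits without array 3 or 5, elsewhere up to 0.162), and Nkx2-2, described above, is on this list too. Olig2 differed by 1.34 (adjusted p = 0.0718) and Gpr17, a receptor of maturing oligodendrocyte precursors, by 0.69 (adjusted p = 0.0957), while Pdgfra, the growth factor receptor of these precursors, differed by -0.26. Cspg4 was also the 1 called gene among 9 tested pericyte markers, of which 7 lay above 0 with a median of 0.31. The summed signal of the pericyte markers was 669 and 663 in wild type and 1047 and 986 in the knockout. Tnr, a matrix protein that oligodendrocytes and some neurons make, read 49.1 and 61.1 against 115 and 147 (2.37-fold, adjusted p = 0.00946, lost without array 7, 0.0542).

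Of 22 tested markers of astrocytes and of Bergmann glia, the radial glia of the cerebellum, 2 rose and 0 fell, 21 lay above 0 and the median was 0.29. The summed signal was 46306 and 45232 in wild type and 58281 and 53452 in the knockout. Gdf10, a growth factor of Bergmann glia, read 309 and 353 against 852 and 576 (2.12-fold, adjusted p = 0.0371, blocked 0.121, kept only in the fits without array 3 or 10). Sparcl1, a secreted matrix protein of astrocytes, rose 1.60-fold, from 2451 and 2452 to 4130 and 3703 (adjusted p = 0.0379, blocked 0.0791, kept only in the fits without array 1 or 3). The gap junction gene Gja1, with all 6 probe sets between 0.68 and 1.18, did not pass (adjusted p = 0.0842), nor did Ptprz1 at 1.01 (adjusted p = 0.122). Without Shh the same lists had medians of -0.06 (astrocytes) and -0.09 (oligodendrocyte lineage), and Olig1, Sox10, Gdf10 and Sparcl1 differed by -0.10, 0.06, 0.06 and 0.05. Both lists were much brighter there. Untreated wild type sums were 94297, 117947 and 105740 (astrocytes) and 51691, 50362 and 49572 (oligodendrocyte lineage). The sums of both genotypes with Shh lay below these, so the medians of the 2 conditions come from unlike levels. No gene of either list passed the test of the difference between the 2 conditions.

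**Figure D3:**
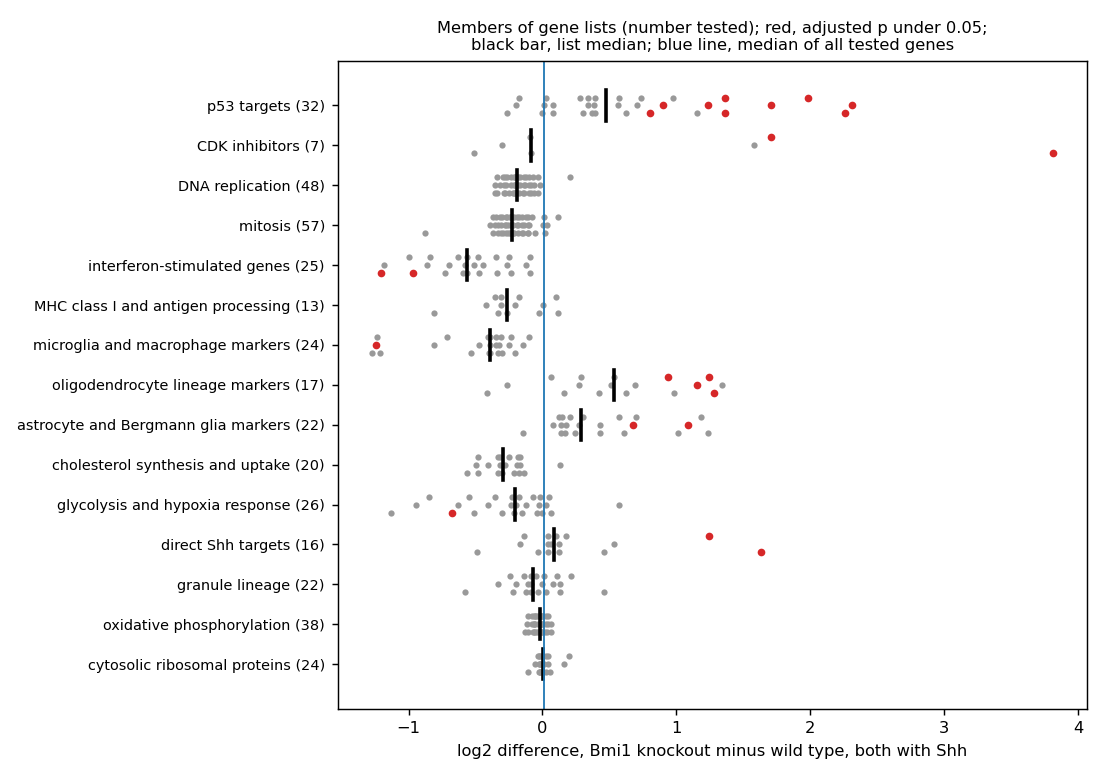
Each point is a tested gene, placed by its log2 difference between knockout and wild type with Shh, in 15 of the 48 gene lists; red points passed the threshold, black bars are list medians and the blue line is the median of all tested genes. The p53 targets (median 0.48) and oligodendrocyte markers (0.54) lie to the right, and the interferon-stimulated genes (-0.56) and microglia markers (-0.39) lie wholly to the left of 0.

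Interferon-stimulated genes lay lower in the knockout. Such genes are switched on by interferon through STAT transcription factors and act against infection. Of the 25 tested members 0 rose and 2 fell, and all 25 lay below 0 with a median of -0.56. Their summed signal was 22015 and 21460 in wild type and 14180 and 14933 in the knockout. In the fit with no filter on low genes, 0 of 43 members of this list were called. Of these 43, 40 lay below 0 and 3 above, and the median was -0.56. The 2 falls, Irgm1 and Lgals9, thus lost their calls in that fit. Irgm1, a GTPase of cell-autonomous immunity, read 1551 and 1380 against 730 and 771, a 1.95-fold fall (adjusted p = 0.0374). Lgals9, which encodes galectin-9, read 1502 and 1618 against 588 and 777, a 2.31-fold fall (adjusted p = 0.0498). Among the fits with an array left out, the call of Irgm1 was kept only without array 1 or 5 (adjusted p elsewhere up to 0.186) and that of Lgals9 only without array 2 or 6 (up to 0.261), and both held in the blocked fit. Nmi, a STAT-binding protein induced by interferon that is not on the list, fell 1.80-fold, from 405 and 398 to 234 and 213 (adjusted p = 0.0428, blocked 0.0883, kept only in the fits without array 3 or 5). Larger differences without a call were those of Oasl2, at 584 and 558 against 250 and 253 (-1.18, SE 0.34, adjusted p = 0.219), Ifi35 (-0.86, adjusted p = 0.112) and Usp18, at 2722 and 2764 against 1509 and 1554 (-0.84, adjusted p = 0.157). In Oasl2 and Usp18 the arrays of a genotype lay close together with Shh, and the SE also carries the spread of the untreated arrays. The genes of class I antigen presentation had 0 calls by limma among 13 tested. At an unadjusted p under 0.05, 3 of them were lower, beside 3.27% of all tested genes. Their median was -0.27 (-0.13 without array 8), and B2m, the light chain of class I molecules, differed by -0.33. With each probe set on its own, 1 for the heavy chain gene H2-K1 was called, at 3370 and 3770 against 1770 and 2190 (-0.86, adjusted p = 0.0473), while the brightest of its probe sets gave -0.36 (adjusted p = 0.587) in the fit by gene.

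The promoters of Irgm1, Lgals9 and a further interferon-inducible GTPase, Igtp, are shown for their copies of the core of the interferon-stimulated response element, written as GAAA and GAAA parted by 2 bases of any kind. This motif was searched on both strands in the same 250 bases, and overlapping copies were counted. It was in 8 of 23 promoters of the interferon list (34.8%), in 2 of 9 of the called falls, in 1 of 53 of the called rises and in 2.85% of all 9262 promoters. Capitals mark the motif in Irgm1 (chr11:48871421-48871670, minus strand, 2 overlapping copies), in Lgals9 (chr11:78984925-78985174, minus strand, read on the opposite strand of the motif) and in Igtp (chr11:58199306-58199555, plus strand).
Irgm1: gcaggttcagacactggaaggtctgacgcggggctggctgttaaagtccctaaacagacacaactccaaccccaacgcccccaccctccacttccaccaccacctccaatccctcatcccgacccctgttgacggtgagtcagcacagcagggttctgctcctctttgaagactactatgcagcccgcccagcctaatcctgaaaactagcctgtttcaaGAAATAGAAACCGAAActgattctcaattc
Lgals9: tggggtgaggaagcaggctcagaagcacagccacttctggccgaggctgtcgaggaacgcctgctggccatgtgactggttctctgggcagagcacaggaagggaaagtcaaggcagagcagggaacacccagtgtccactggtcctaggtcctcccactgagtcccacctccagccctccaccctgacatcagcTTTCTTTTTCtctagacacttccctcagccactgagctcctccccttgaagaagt
Igtp: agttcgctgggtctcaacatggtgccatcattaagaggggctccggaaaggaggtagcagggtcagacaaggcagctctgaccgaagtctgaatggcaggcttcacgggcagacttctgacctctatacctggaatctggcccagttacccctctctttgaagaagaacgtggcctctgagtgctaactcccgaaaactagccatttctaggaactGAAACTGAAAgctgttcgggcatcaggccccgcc
In all 3 the motif lies close to the start, ending 15 bases before it in Irgm1, 46 in Lgals9 and 25 in Igtp. Igtp was named for this motif with its value known, and it differed by -0.51 (SE 0.57, adjusted p = 0.909).

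Microglia, the macrophages of the brain, express many of these genes, and their markers were lower too. Of 24 tested markers 0 rose and 1 fell, all 24 lay below 0 and the median was -0.39. Without array 8 the median was -0.14 and 0 genes of the list were called, and without array 10 it was -0.60. The summed signal was 12426 and 12924 in wild type and 8324 and 11055 in the knockout. C1qa, a complement subunit made by microglia, read 478 and 495 against 179 and 235, a 2.37-fold fall (SE 0.16 on the log2 scale, adjusted p = 0.0111, lost without array 7, 8 or 9, up to 0.0901). The genes of its partner chains differed by -1.28 (C1qb, adjusted p = 0.0939, with another of its probe sets called at -1.31) and -1.21 (C1qc, adjusted p = 0.0568), and Aif1, a defining microglial gene, read 130 and 142 against 48.2 and 69.4 (-1.23, adjusted p = 0.27). None of these was at 0 on any Shh array. Without Shh the microglial markers had a median of -0.43, with all 24 below 0, whereas the interferon list had a median of -0.04 there and 11 of its 25 members above 0. The interferon list was much dimmer without Shh, with a summed signal of 5597, 5328 and 4754 in wild type and 5367, 4935 and 4960 in the knockout. In wild type with Shh that sum was 22015 and 21460, so the 2 medians of this list come from unlike levels. The part of microglia in the fall of the interferon list was not tested.

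Lipid and energy genes gave further falls. Scd1, the desaturase that makes monounsaturated fatty acids, read 2369 and 2592 against 1169 and 1159, a 2.13-fold fall (SE 0.13 on the log2 scale, adjusted p = 0.00792, lost without array 8 or 9, up to 0.0666), and its other probe set gave -0.98. Genes of cholesterol synthesis and uptake had 0 calls by limma, but 10 of 20 were lower at an unadjusted p under 0.05. Of all tested genes 3.27% were. In this list 19 genes lay below 0, beside 46.5% of all tested genes, and the median was -0.29. Their summed signal was 96686 and 99585 in wild type and 83016 and 80263 in the knockout. The enzymes Nsdhl and Lss differed by -0.48 (adjusted p = 0.0711) and -0.50 (adjusted p = 0.0939), and Srebf1, the transcription factor of lipid synthesis, by -0.43 (adjusted p = 0.133). Without Shh the cholesterol list had a median of -0.22, with 19 of 20 below 0.

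Genes of glycolysis and of the hypoxia response had 1 call, a fall, among 26 tested, with 22 below 0 and a median of -0.21. Bnip3, a hypoxia-induced gene of mitochondrial turnover, fell from 2355 and 2065 to 1337 and 1422 (1.60-fold, adjusted p = 0.0496, blocked 0.122, kept only in the fit without array 3). Ankrd37, another hypoxia-induced gene, read 271 and 224 against 110 and 115 (-1.13, adjusted p = 0.131), and Ldha, lactate dehydrogenase, 9492 and 9250 against 6935 and 7226 (-0.40, adjusted p = 0.141). Aldoc, the aldolase of astrocytes and Purkinje cells, was among the 4 members above 0, at 0.57. Without Shh the list's median was 0.00. Genes of oxidative phosphorylation had a median of -0.02 and 0 calls by limma among 38, also at an unadjusted p under 0.05. Other falls were Phyhip (at least 2.70-fold), Hsd11b1, which regenerates active glucocorticoid (at least 2.36-fold), Cmtm7 (2.25-fold), Plp2 (1.87-fold) and St6galnac4 (1.53-fold). All of these but Phyhip lost their call in the blocked fit, with adjusted p from 0.0655 to 0.0802. Without array 7, 8 or 9 all 5 lost it, and without array 10 Cmtm7, Plp2 and St6galnac4 did. The last of these was lost without array 4, 5 or 6 as well.

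Genes of cell division lay slightly lower in the knockout. By limma none of 48 genes of DNA replication was called, but 47 lay below 0, 33 had groups that did not overlap on the lower side, and the median was -0.19 (-0.12 without array 10). For mitosis 0 of 57 were called, 52 lay below 0, 39 did not overlap on the lower side and the median was -0.23 (-0.15 without array 10). Over all tested genes 46.5% lay below 0 and 16.8% did not overlap on the lower side. At unadjusted p under 0.05, 7 replication genes and 14 mitosis genes were lower and 0 were higher, beside 3.27% lower and 6.48% higher among all tested genes. E2f2, a transcription factor of S phase entry, came nearest to a call, at 1097 and 1279 against 840 and 780 (-0.55, SE 0.11, adjusted p = 0.0603). The mitotic kinase genes Nek2 and Bub1b differed by -0.39 and -0.33 (adjusted p = 0.26 and 0.23). Mki67, the proliferation antigen, read 6126 and 6061 against 6651 and 5840 and differed by 0.03, and Pcna by -0.14 (SE 0.14). Without Shh the medians of the same lists were 0.03 and 0.01. The summed signal of the mitosis list was 209677 and 208100 in wild type and 194763 and 173213 in the knockout, with knockout array 10 the lowest.

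Genes of the Shh pathway were not called apart from 2 listed targets, Igf2 and Nkx2-2. In wild type both of these read lower with Shh than without. Igf2 read 642, 565 and 635 without Shh and 138 and 130 with it, and Nkx2-2 read 593, 719 and 629 against 220 and 245. Gli1, the usual readout of the pathway, stood at 1665 and 1745 against 1987 and 1550, so that the groups overlapped (0.04, SE 0.13, adjusted p = 0.987). Ptch1, at once receptor and target, differed by 0.18 (SE 0.10), Mycn by -0.03 (SE 0.15), Ccnd1 by 0.13 (SE 0.15) and Ccnd2 by 0.04 (SE 0.14). In data simulated on these arrays, 16.4% of genes changed by 0.5 on the log2 scale were called, so these values do not show that the genotypes respond alike. The median over 16 direct targets was 0.09 and over 24 components 0.06, and both turned slightly negative without array 8 (-0.03 and -0.01). The difference of Hhip, a decoy receptor, was 0.53 (adjusted p = 0.52) and that of Smo, the signal transducer, -0.26 (adjusted p = 0.655).

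The genotype difference was then set beside the one without Shh, which rests on other arrays. The arrays of the 2 conditions were not matched in the Y-linked gene Eif2s3y, as given above, and the part of sex was not tested. Without Shh 43 genes were called (0.377%), and 29 genes were called in both conditions, 25 higher and 4 lower in each. That is 29 of the 83 with Shh and 29 of the 43 without. Cdkn2a differed by 3.82 with Shh and 2.98 without, Robo3 by 3.40 and 4.79, Cdkn1a by 1.71 and 2.30, Pmaip1 by 2.32 and 2.08, and Phlda3 by 2.26 and 1.31. The other 54 were called with Shh and not without, which does not show that the 2 differences are unequal. Tested directly, as the difference of the genotype effect with and without Shh, 1 gene of 11397 passed (0.00877%), and that gene was Igf2. At an unadjusted p under 0.05 there were 561 genes (4.92%).

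**Figure D4:**
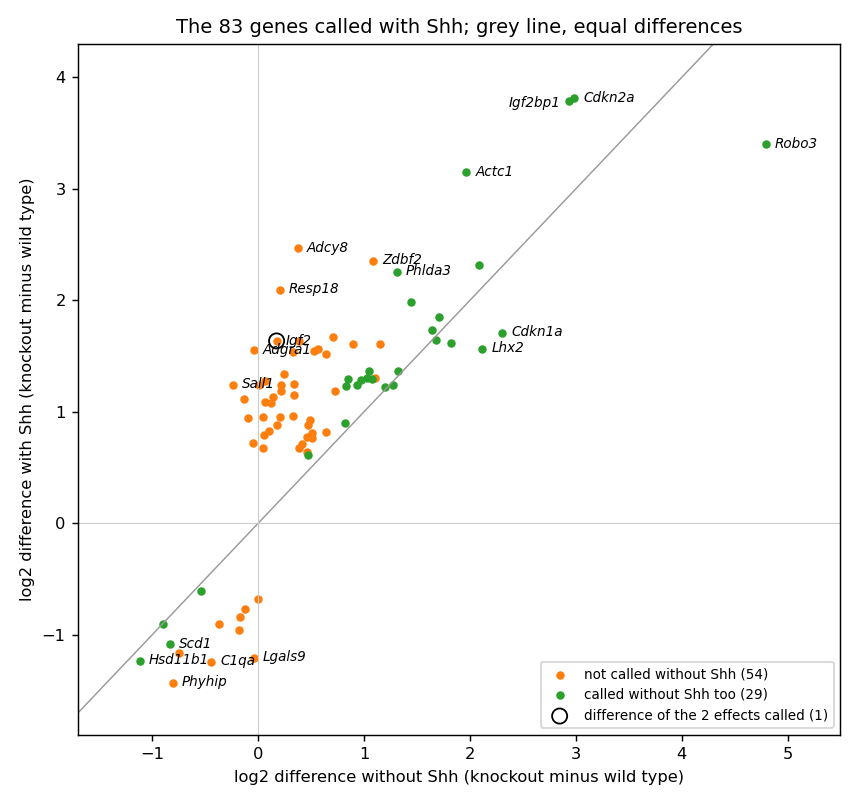
The 83 genes called with Shh, placed by their log2 difference between knockout and wild type without Shh (x axis) and with it (y axis); green points were called in both conditions, orange ones with Shh alone, and the ring marks Igf2, for which the difference of the 2 effects passed. Because the genes were chosen by their difference with Shh, many points above the grey line of equality come with that choice; Robo3 and Cdkn1a lie below it.

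Igf2 showed the following in all 10 cultures. Without Shh it read 642, 565 and 635 in wild type and 647, 751 and 680 in the knockout, and with Shh 138 and 130 in wild type and 426 and 404 in the knockout. Its level was thus lowest in wild type with Shh, intermediate in the knockout with Shh and highest in both untreated groups, whose difference was not called (0.17, SE 0.09, adjusted p = 0.691), although the lowest knockout value, 647, lay just above the highest wild type value, 642. The genotype effect was 1.46 larger with Shh (SE 0.15, adjusted p = 0.0381). That call was lost with any 1 of the 10 arrays left out (adjusted p from 0.0645 to 0.296) and in the blocked fit (0.386). Igf2 is also on the list of fibroblast and meningeal markers, whose summed signal was 10019, 9498 and 8311 in untreated wild type. With Shh that sum was 7720 and 7459 in wild type and 7231 and 7242 in the knockout. Igf2 was the 1 called of its 11 tested members. Pericyte markers summed to 5771, 6122 and 6024 in untreated wild type and to 669 and 663 in wild type with Shh. The part of such cells in the Igf2 values was not tested. After Igf2, next in order were Adgra1, an adhesion receptor gene, with a genotype effect of 1.55 with Shh and -0.04 without, Plaat1, with -0.55 and 0.43, Adgrb2, with 0.54 and -0.19, and Fndc1, with 1.54 and 0.33. All 4 had an adjusted p of 0.443.

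**Figure D5:**
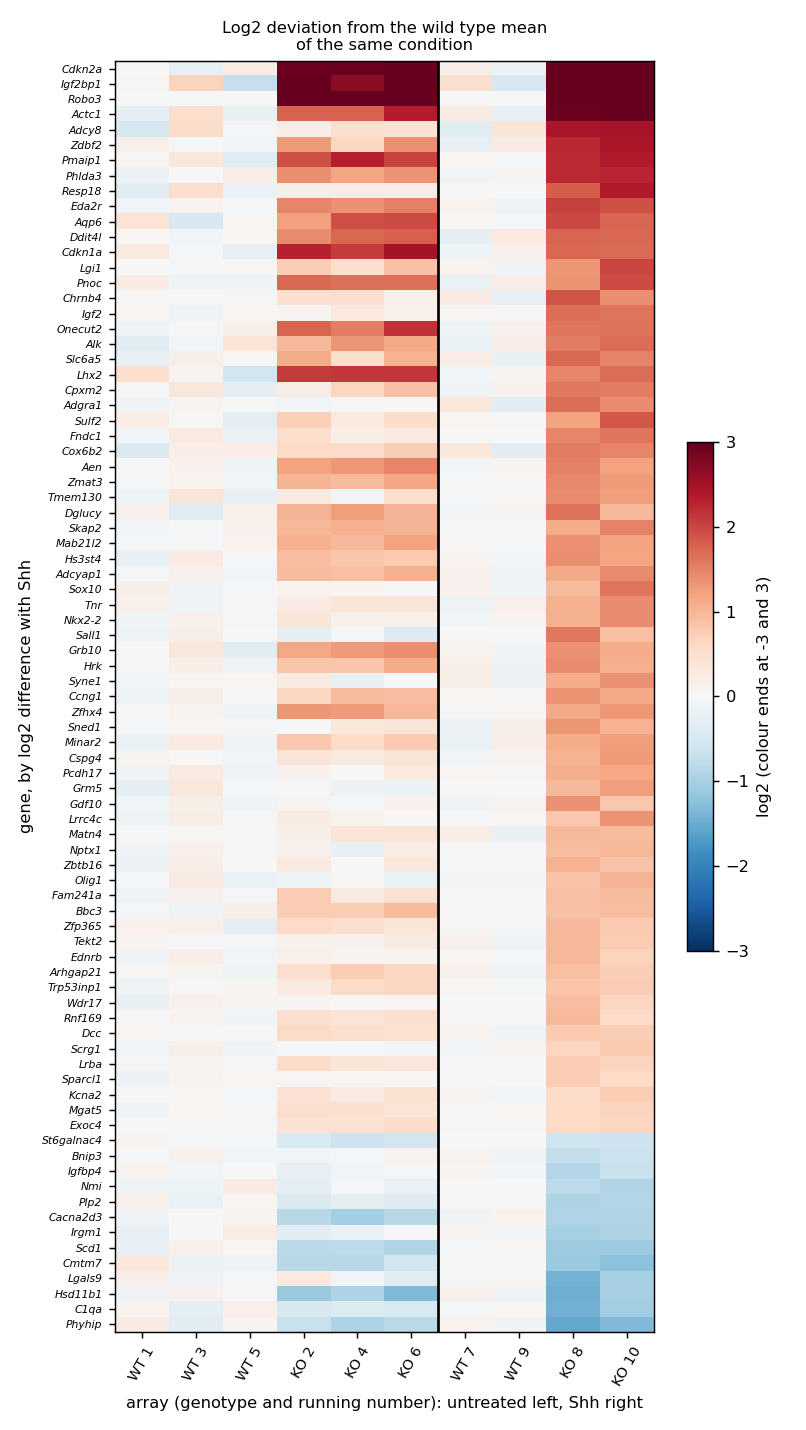
Every gene called with Shh (rows, from the largest rise to the largest fall) on every array (columns, untreated left and Shh right), coloured by its log2 deviation from the wild type mean of the same condition. The knockout arrays 8 and 10 are red over the 70 rises and blue over the 13 falls, and on the untreated knockout arrays 2, 4 and 6 the 29 genes called in both conditions keep their colour.

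Genes around Bmi1 itself were looked at next. Of the 10 tested genes on each side in gene order, 1 was called. Arhgap21, a GTPase-activating protein and the fifth tested gene after Bmi1, read 2311 and 1951 against 3961 and 3523 (1.76-fold, adjusted p = 0.0368, blocked 0.0549, kept only in the fits without array 2 or 3). Its other probe set read 434 and 322 against 3932 and 4008, a difference of 3.41 (SE 0.17, adjusted p = 0.00014 among all probe sets tested on their own), so that the 2 probe sets of this gene disagreed in size. Without Shh that probe set differed by 3.42. The 20 neighbours had a median difference of 0.13 and a range of -0.48 to 1.51, and 16 lay above 0. Gad2, a GABA-synthesising enzyme and the eighth tested gene on that side, differed by 1.46 (adjusted p = 0.0957).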

How the data were processed

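The authors deposited array signal intensity, made with MAS5 on a linear scale, for 10 Affymetrix Mouse Genome 430 2.0 arrays, each hybridised from 1.5 µg of total RNA per the labels. GCOS 1.2 is named in the submitters' processing notes. The table holds 45101 probe sets and no detection calls, and every array has a 2% trimmed mean of 500, so no further scaling was done. Precision is limited by the small number of arrays.

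Control probe sets (64) were dropped, 34945 carried 1 gene symbol in the platform annotation, 932 several and 9160 none listed. Signals were raised to the 25th percentile of all values, and log2 was taken. The probe set with the highest mean stood for its gene, and 11397 of 18193 genes were tested, namely those whose mean reached the median over probe sets. Limma 3.58.1 in R 4.3.3 (lmFit, eBayes) was fitted to all 10 arrays with 1 mean per group, with 6 residual and 3.11 prior degrees of freedom, two-sided. On simulated data with 200 changed genes among 11397, 76.1% of changes of 1 on the log2 scale with Shh were called, and 3 of 127 calls were false. The simulated noise was independent between arrays, without pairs, sex differences or a floor, so these figures need not hold for the real arrays.

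No pairs are named in the labels, where each array has a number of its own. Consecutive arrays deviated together from their group means (correlation over genes 0.278, 0.12 and 0.218 untreated and 0.16 with Shh, which is 1 independent value for both pairs, against -0.266 to 0.0533 for other untreated pairings), so a fit with these pairs as a block is given beside the unblocked one where it ends a call. The pairing comes from the data and not from the labels.

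The named genes are the 25 called genes with the largest rise, every called fall, in each of 48 lists the called members and up to 4 further members with the smallest unadjusted p, 25 fixed genes of which 22 were tested, the 5 genes with the smallest p for the difference between conditions, and the 10 tested genes on each side of Bmi1. Other called genes named on no list were chosen with their values known. So were the genes named from the planned fit with no filter and from a fit of each probe set on its own, which was added after the data were seen. The groups compared and the gene lists were chosen with earlier results of these data known, and lists are described by counts and medians with no set test. Promoter sequences and gene order come from RefSeq (GRCm38.p6).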

Additional observations from a re-analysis of the deposited data

Results flagged for a closer look

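Igf2 was the 1 gene whose genotype effect differed between the conditions by a test of that difference, with a log2 genotype effect 1.46 larger with Shh than without (adjusted p = 0.0381 by limma). It was higher on 2 of 2 knockout arrays than on either wild type array with Shh. Without Shh the lowest knockout value, 647, lay just above the highest wild type value, 642. The call did not hold with any 1 array left out, the second Igf2 probe set was under the floor on all 4 Shh arrays, and the cause was not tested.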

How the results depend on the processing

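Against 83 genes called with Shh, the 4 Shh arrays alone gave 3, the replicate block by consecutive numbers 50, a filter at the 75th percentile 48, quantile normalization 51 and eBayes with trend and robust options 135. With 1 array left out the count ran from 29 to 94, and it was 29 without array 8, 32 without array 9, 53 without array 7, and 55 without array 10 or array 4. The count for the difference between conditions, 1, became 0 under the block (855 genes at an unadjusted p under 0.05), the 75th percentile filter (286), quantile normalization (538), median scaling (573) and the mean of all probe sets (552), 3 with a floor at the 10th percentile and 8 with no filter on low genes, and ran from 0 to 2 with 1 array left out (463 to 643 at an unadjusted p under 0.05). Without Shh the count of 43 became 23 under the block and 82 with trend and robust options, and ran from 19 (without array 6) to 50, with 25 without array 1. With no filter on low genes 91 genes were called with Shh, 46 of them among the 83. With each probe set on its own, an alternative added after the data were seen, a called probe set was found for 70 genes with Shh, 35 without, and 0 for the difference between conditions (867 probe sets at an unadjusted p under 0.05). None of the 83 called genes changed sign under any alternative in which it was tested. Signs turned in genes near 0: Barhl1 (0.01) and Ccnd2 (-0.15) with the mean of all probe sets, and Ccnd2 (-0.03), Gli1 (-0.02), Mki67 (-0.03) and Zic1 (-0.04) under median scaling. With 1 array left out the sign also turned, over ranges of -0.21 to 0.14 for Barhl1, -0.03 to 0.28 for Ccnd1, -0.24 to 0.05 for Cdkn1b, -0.14 to 0.22 for Gli1, -0.06 to 0.13 for Mki67, -0.11 to 0.04 for Mycn, -0.03 to 0.08 for Zic1 and -0.14 (without array 8) to 6.68 for Xist. The medians of the p53, interferon, microglia, oligodendrocyte, DNA replication and mitosis lists kept their sign in all 20 alternatives. In each case the cause was not tested, other than fewer samples or genes in the fit.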
